A study of Mus musculus with 2 samples.

Results

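The Hox cluster genes encode homeodomain transcription factors that give cells their position along the head to tail axis. In the mouse they stand in 4 clusters, HoxA, HoxB, HoxC and HoxD, each on its own chromosome, and within a cluster the genes are numbered so that low numbers are used towards the head and high numbers towards the tail. Retinoic acid and the trithorax proteins open the clusters, Polycomb proteins keep them silent, and HOX proteins bind DNA together with PBX, MEIS and PKNOX proteins. Cells of the neural crest, the source of sympathetic neurons and of neuroblastoma, keep part of the Hox code of the level at which they arose.

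Neuro2a, a mouse neuroblastoma line grown in culture, was transfected with a control siRNA (siControl) or with siRNA designed against the coding region of Cpeb1 mRNA (siCPEB1), and total RNA was collected after 24 h. CPEB1 is an RNA-binding protein that controls the poly(A) tails and the translation of its target mRNAs. RNA of each culture was read on 1 Affymetrix Mouse Genome 430 array from 100 ng of total RNA, so that the 2 arrays were compared with no replicate and no test of any difference was possible. Every value below compares these 2 arrays, and the spread between cultures is unknown.

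Members were the probe sets that the platform annotation assigns to 1 gene named Hoxa, Hoxb, Hoxc or Hoxd with a number. This gave 48 probe sets of 33 genes, out of 45037 probe sets and 18193 named genes. HoxA had 16 probe sets of 9 genes, HoxB 11 of 9, HoxC 11 of 7 and HoxD 10 of 8. Signals are MAS5 intensities on a linear scale. The array median was 21.0 in siControl and 21.6 in siCPEB1, and log2 ratios are siCPEB1 over siControl after division of each array by its median. Ratios of dim signals spread widely. Among probe sets below the median in both arrays, 44.8% had a ratio past 2-fold in one direction or the other. A bound was therefore also computed with each signal below the median of its array set at that median, and a probe set was called when the bound passed 2-fold.

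Cpeb1 itself read 302 in siControl and 38.5 in siCPEB1, 8.08-fold lower after scaling (log2 ratio −3.01), in the direction of the labels.

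The promoters of the members that were read at or above the array median are shown because these Hox genes reached the floor used for the bound. This floor is not a detection call. Promoter sequence was at hand for 3 of these 7 genes (RefSeq, GRCm38.p6, 250 bases before and 50 after the start). Capitals mark AGGTCA, the unit bound by retinoic acid and related nuclear receptors, on either strand. The Hoxc4 promoter (chr15:103034145-103034444, plus strand) starts inside the longest annotated extent of that gene. The Hoxa5 promoter is at chr6:52204538-52204837 and that of Hoxa9 at chr6:52227321-52227620, both on the minus strand.
Hoxc4 promoter: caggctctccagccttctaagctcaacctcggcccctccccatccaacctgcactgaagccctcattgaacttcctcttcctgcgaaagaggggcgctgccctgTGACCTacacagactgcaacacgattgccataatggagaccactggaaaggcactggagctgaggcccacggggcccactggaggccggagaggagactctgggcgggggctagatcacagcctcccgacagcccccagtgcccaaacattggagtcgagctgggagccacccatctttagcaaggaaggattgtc
Hoxa5 promoter: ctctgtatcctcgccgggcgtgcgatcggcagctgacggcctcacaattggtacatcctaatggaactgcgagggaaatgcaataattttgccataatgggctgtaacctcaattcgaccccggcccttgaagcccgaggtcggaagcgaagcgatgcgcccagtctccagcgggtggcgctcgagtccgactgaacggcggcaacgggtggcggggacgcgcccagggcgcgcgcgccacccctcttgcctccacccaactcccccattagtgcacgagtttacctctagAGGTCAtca
Hoxa9 promoter: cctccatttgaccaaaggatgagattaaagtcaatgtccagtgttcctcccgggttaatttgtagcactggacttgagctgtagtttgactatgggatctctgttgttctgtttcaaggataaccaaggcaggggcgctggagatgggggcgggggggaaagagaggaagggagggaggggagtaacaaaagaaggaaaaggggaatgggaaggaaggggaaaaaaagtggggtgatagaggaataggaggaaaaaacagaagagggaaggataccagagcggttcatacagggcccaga

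AGGTCA (opposite strand TGACCT) was found in the Hoxc4 and Hoxa5 windows and not in that of Hoxa9. It was present in 7 of the 24 promoters at hand for 22 Hox genes, with or without a probe set (29.2%), and in 16.3% of all 32851 promoters. The PBX and HOX site TGATTNAT was in 2 Hox promoters (8.33%, against 3.22% of all), the MEIS and PKNOX site TGACAG in 2 (8.33%, against 19.2%) and the TATA box TATAAA in 4 (16.7%, against 13.6%), with both strands searched. None of the 3 sequences above held any of these. GC content was 60.3% in the Hoxc4 window, 61.7% in that of Hoxa5 and 49.7% in that of Hoxa9, against a median of 52.7% over all promoters. The Hoxa5 window held 29 CpG dinucleotides and that of Hoxa9 4, against a median of 7.

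The clusters also hold microRNA genes, which these arrays were not used to measure here. The miR-196 pair is shown because its members lie beside Hox genes that were read at the median, miR-196a-5p between Hoxc10 and Hoxc9 (chr15:102973365-102973386, plus strand, with a second copy in HoxB at chr11:96265187-96265208) and miR-196b-5p beside Hoxa9 (chr6:52230129-52230150, minus strand). Capitals mark the seed, bases 2 to 8, which both share.
miR-196a-5p: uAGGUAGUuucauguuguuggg
miR-196b-5p: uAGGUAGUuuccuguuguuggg

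In these cells the Hox genes were read at or above the array median mainly from the HoxC cluster. At or above the median were 9 of the 48 probe sets in siControl and 8 in siCPEB1. The share at the median in both arrays was 16.7% (8 probe sets), below the 46.8% of all probe sets. HoxC accounted for 6 of its 11 probe sets, HoxA for 2 of 16, and HoxB and HoxD for 0 of 11 and 0 of 10. By gene, 5 of 7 HoxC genes and 2 of 9 HoxA genes had a probe set at the median in both arrays. Without _x_at and _s_at probe sets, 6 Hox probe sets were at the median in both arrays, and Hoxa5 was no longer among their genes. The _x_at type can bind related transcripts. Among the other homeobox genes listed, 23 of 87 probe sets (26.4%) were at the median in both arrays. The same 7 Hox genes had a probe set at the median in each array, and no further Hox gene reached it in siCPEB1. By probe set the arrays differed in Hoxc6 1427454_at, which was at the median in siControl alone (31.8 and 4.81).

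**Figure D1:**
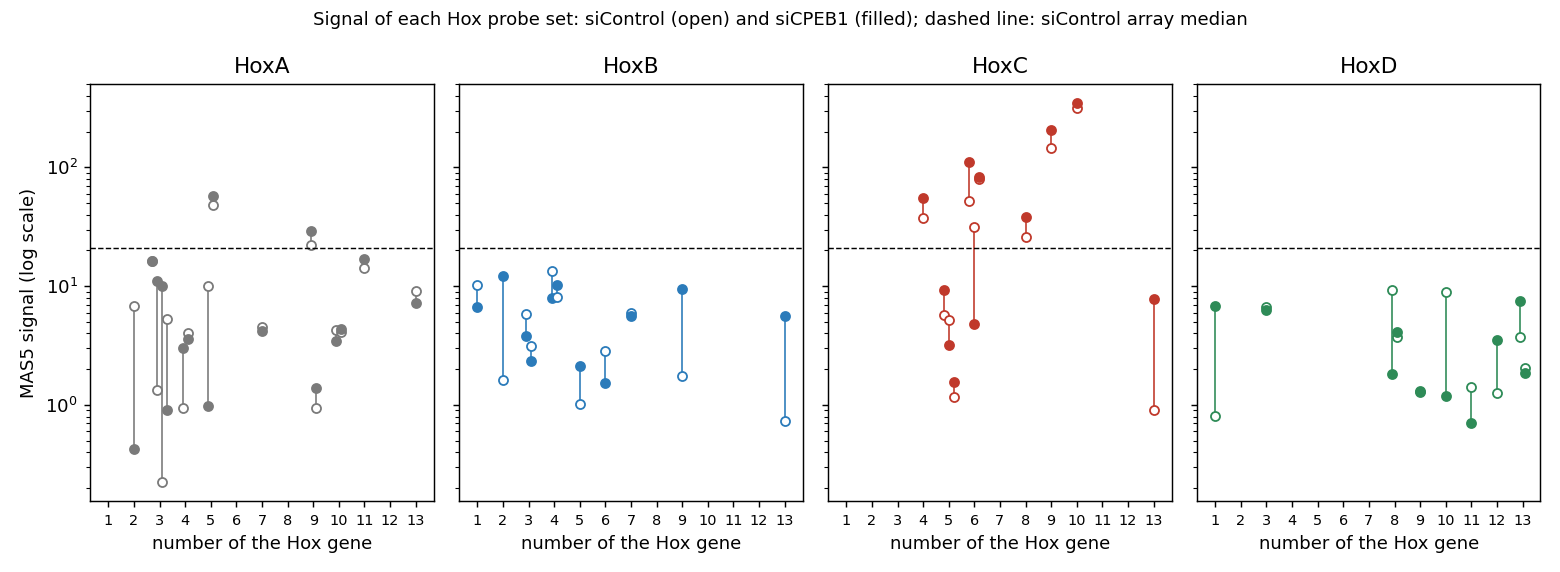
MAS5 signal (log scale) of each of the 48 Hox probe sets, by cluster and by the number of the gene. Open circles are siControl, filled circles siCPEB1, and a line joins the 2 readings of a probe set. Probe sets of one gene are set side by side. The dashed line is the siControl array median (21.0). HoxB and HoxD lie wholly below it.

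The members at the median belonged to genes numbered 4 to 10. Of 29 probe sets of these genes, 8 were at the median in both arrays, against 0 of 11 for genes numbered 1 to 3 and 0 of 8 for those numbered 11 to 13. HoxC, which gave 6 of these 8, has no genes numbered 1 to 3, and its Hoxc11 and Hoxc12 had no member. Gene number and cluster can therefore not be told apart here. In HoxC they formed a block on chromosome 15 from Hoxc10 to Hoxc4 (chr15:102966796-103036856 in GRCm38, 70.1 kb of a cluster of 115.7 kb). Hoxc5, inside this block, was below the median in all 3 of its probe sets. Hoxc13, at the far end of the cluster, was below it too. Between Hoxc13 and Hoxc10 no gene had a member, so the edge of the block on that side was not read.

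After CPEB1 depletion all 8 members at the median in both arrays read higher in siCPEB1 than in siControl, with a median log2 ratio of 0.41 and a range of 0.02 to 1.03. Of all probe sets at the median in both arrays 48.6% had a ratio above 1, and their median log2 ratio was −0.02. For the other homeobox genes listed, 16 of 23 such probe sets (69.6%) had a ratio above 1, with a median log2 ratio of 0.22. Membership of the set of 8 Hox probe sets was decided by the same 2 signals that the ratio compares. Of the 9 members at the median in siControl this set left out Hoxc6 1427454_at. That probe set was lower in siCPEB1 (31.8 and 4.81, log2 ratio −2.76) and fell below the median there. All 8 were also above 0 with quantile normalization, loess or 16 added to both signals, on the same 2 arrays. With no scaling every ratio rises by 0.04, and 75th percentile scaling shifts all ratios by the same small amount. Neither of these settings could change the sign of the 8. The sizes were modest. Each lay inside the central 95% of log2 ratios of probe sets of like signal, and 6 of the 8 came from 5 genes of the one cluster HoxC, read on the same pair of arrays. Probe sets of the same gene at the median in both arrays differed from each other by a pooled SD of 0.30 on the log2 scale (13355 probe sets of 5035 genes). In RNA of a whole culture, a difference in the number of cells that express a gene and one in its RNA per cell cannot be told apart.

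Hoxc10, a gene of the lumbar level and the hindlimb, was the member furthest up its arrays. Its probe set 1439798_at read 316 in siControl and 351 in siCPEB1 (percentiles 83.8 and 85.0), a log2 ratio of 0.11. This difference was smaller than the SD between probe sets of one gene. Hoxc9, which marks the thoracic level and helps to set the identity of thoracic motor neurons, read 147 in siControl and 206 in siCPEB1. Its log2 ratio was 0.45 (1.37-fold). Hoxc8, which guides brachial motor neurons, stood just above the median with 26.1 in siControl and 38.6 in siCPEB1, a log2 ratio of 0.52 (1.44-fold). Both stayed under 2-fold and exceeded the SD between probe sets of one gene pooled over all those at the median in both arrays. Within the class of like signal this SD was 0.50 for Hoxc8 and 0.28 for Hoxc9. The ratio of Hoxc8 was thus about level with the spread at its own signal, and that of Hoxc9 was above it.

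Hoxc4, a gene of cervical level at the other end of the block, was measured by 1422870_at, which read 37.2 in siControl and 55.7 in siCPEB1. The log2 ratio was 0.54 (1.46-fold), close to those of Hoxc8 and Hoxc9. Across other scalings and offsets it ranged from 0.41 to 0.58.

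Hoxc6, a gene of brachial and thoracic level (chr15:102998226-103011882), had 3 probe sets with unlike results. 1427361_at read 52.5 in siControl and 110 in siCPEB1, a log2 ratio of 1.03 (2.05-fold). 1427362_x_at, of a type that can bind related transcripts, read 80.1 and 83.6, a log2 ratio of 0.02. 1427454_at read 31.8 in siControl and 4.81 in siCPEB1, so that it was at the median in siControl alone, with a ratio of −2.76 and a bound of −0.59. Thus one probe set of this gene was higher in siCPEB1, one nearly level and one lower, and the positions of the probe sets within the transcripts were not used here. The lower one was outside the central 95% for its level of signal (−1.46 to 1.67), whereas 1427361_at was inside (−1.20 to 1.21).

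1427361_at was the 1 Hox probe set called higher, and 0 were called lower. Over all probe sets 1.37% were called higher and 1.68% lower, so that 1 of 48 is near the background. The call was narrow: the log2 ratio of 1427361_at was between 0.86 and 1.07 over the settings tried, and with 16 added to both signals it was under 2-fold. In that setting the 1 Hox probe set past 2-fold was the lower one of the same gene, 1427454_at, at −1.22.

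**Figure D2:**
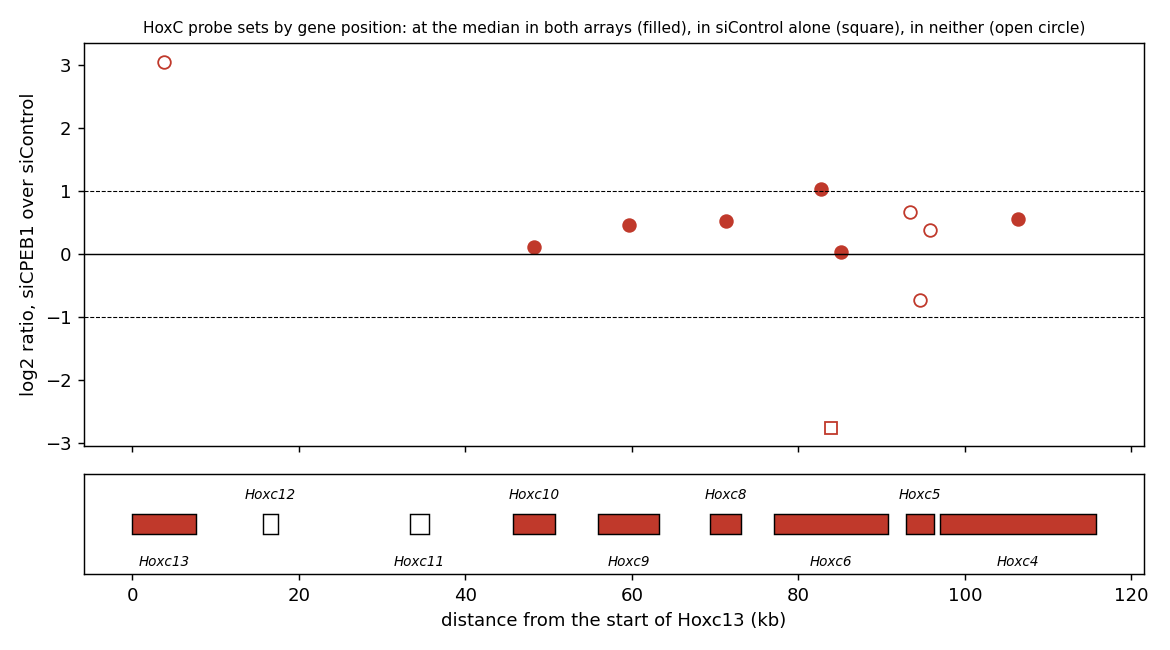
Log2 ratios (siCPEB1 over siControl) of the 11 HoxC probe sets, against the place of their gene, with distance in kb from the start of Hoxc13. Points of one gene are spread over its length and do not mark the position of the probes. Filled circles were at or above the median in both arrays, the square in siControl alone, open circles in neither. Dashed lines mark 2-fold. White boxes are genes with no member. The 6 filled points lie between 0.02 and 1.03.

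The other HoxC readings were too dim to give a direction. Hoxc5 read 5.72, 5.19 and 1.17 in siControl and 9.35, 3.21 and 1.56 in siCPEB1. Its 3 probe sets thus differed in sign. Hoxc13, a gene of hair and nail, read 0.913 and 7.77, both far below the median.

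In HoxA, 2 genes reached the median. Hoxa5, which patterns the lung and the cervical spine, read 48.4 in siControl and 57.7 in siCPEB1 from 1443803_x_at (log2 ratio 0.21). Its other probe set, 1448926_at, read 9.96 and 0.981, below the median in both arrays. Hoxa9, known for its role in blood progenitors and leukaemia, read 22.0 and 29.1 from 1421579_at (log2 ratio 0.36), just above the median. Its other probe set read 0.945 and 1.39. For both genes the reading at the median rested on 1 probe set of 2, and that of Hoxa5 was of the _x_at type.

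HoxA genes of the hindbrain had readings below the median that moved widely between the arrays. Hoxa2, the selector gene of the second branchial arch, read 6.84 in siControl and 0.424 in siCPEB1. The 4 probe sets of Hoxa3, which patterns thymus and parathyroid, read 16.2, 1.34, 0.223 and 5.31 in siControl. In siCPEB1 they read 16.3, 11.1, 10.1 and 0.904. One of them was nearly level, a pair higher and one lower, and all 8 readings were below the medians. Hoxa11, a gene of the forearm and uterus, read 14.4 and 16.9, below the median in both arrays.

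HoxB, whose low-numbered genes pattern the hindbrain, was below the median throughout. Its highest reading in siControl was 13.5 (Hoxb4 1460379_at, 7.91 in siCPEB1) and its highest in siCPEB1 was 12.1 (Hoxb2, 1.61 in siControl). Hoxb9 read 1.76 and 9.47, and Hoxb13, a gene of the prostate and tail end, 0.735 and 5.60. Hoxb7 read 5.94 and 5.63. Of the 11 HoxB probe sets, 4 had a ratio past 2-fold (36.4%), each between readings below the medians.

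HoxD, the cluster of limbs and genitals, was likewise below the median. Its highest reading in siControl was 9.34 (Hoxd8 1431099_at, 1.83 in siCPEB1) and its highest in siCPEB1 was 7.52 (Hoxd13 1440626_at, 3.72 in siControl). Hoxd10, which patterns lumbar motor neurons, read 8.92 and 1.18, whereas Hoxd1 read 0.807 and 6.80. Hoxd9 read 1.29 and 1.31. Past 2-fold were 5 of the 10 HoxD ratios, in both directions.

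Over all 39 members below the median in both arrays, signals ran from 0.223 to 16.2 in siControl and from 0.424 to 16.9 in siCPEB1. Log2 ratios ran from −4.05 to 5.46 with a median of −0.03, 18 above 0 and 21 below. Past 2-fold were 16 of them (10 higher and 6 lower, 41.0%), near the 44.8% of all probe sets below the median. For these 39 members no direction can be read from the arrays. Among members of any signal, those at the median included, 11 genes had more than 1 probe set. Of these genes 9 had ratios of both signs and 2 of one sign. Over all 48 the median log2 ratio was 0.07, against −0.00092 for all probe sets, and under quantile normalization it was below 0 (−0.02). Of the 48, 3 ratios were outside the central 95% for their signal (Hoxa3 1429398_at above it, Hoxa2 and Hoxc6 1427454_at below it).

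**Figure D3:**
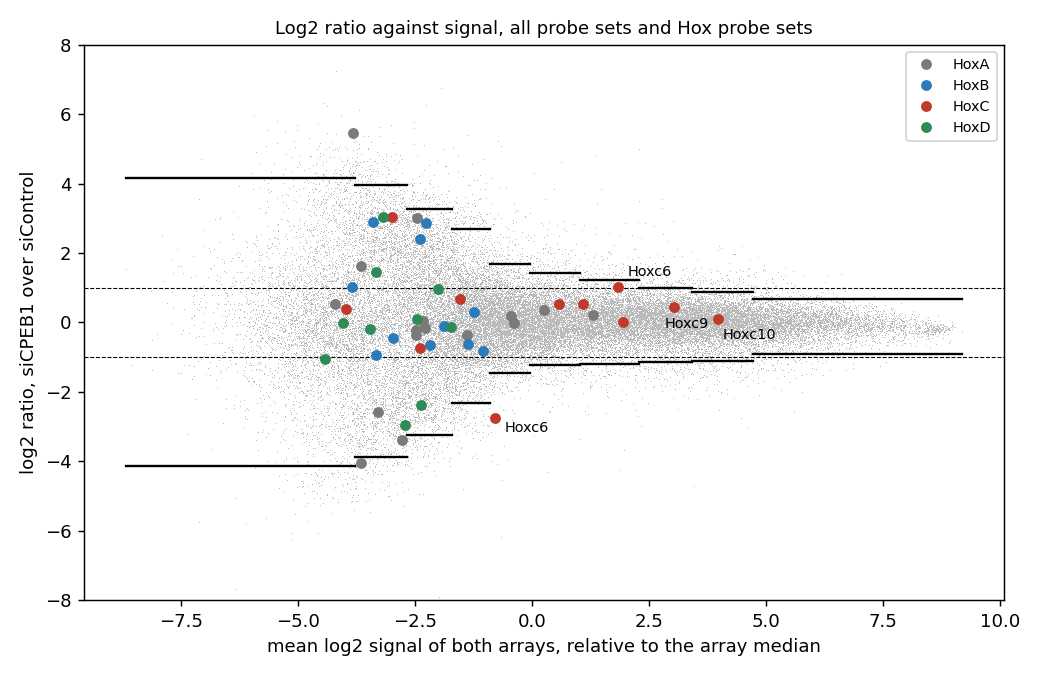
Ratios (log2, siCPEB1 over siControl) against the mean log2 signal of both arrays relative to the median, for all 45037 probe sets (grey) and the 48 Hox probe sets (coloured by cluster). Black bars bound the central 95% of ratios in each of 10 equal classes of signal, and dashed lines mark 2-fold. The spread narrows as the signal grows, and most Hox probe sets lie in its wide part, with HoxC to the right.

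The genes on either side of the HoxC block were read as neighbours on the chromosome. Cbx5, the heterochromatin protein HP1 alpha, had 4 probe sets at the median in both arrays with log2 ratios from 0.45 to 0.94, and a dim one at −0.42. Its brightest read 514 in siControl and 719 in siCPEB1. Calcoco1, a coactivator of nuclear receptors, read 81.2 and 147 (log2 ratio 0.82), and Atf7, a leucine zipper factor, 60.3 and 89.9 (0.54). Each had a further probe set below the median in both arrays, with a ratio of 1.08 for Calcoco1 and −1.92 for Atf7. Smug1, a DNA glycosylase, read 303 and 305 (−0.03), the splicing factor Hnrnpa1 had ratios of −0.01, 0.13 and 0.17, and the brightest probe set of Atp5g2, a subunit of ATP synthase, −0.21. No neighbour of HoxC was called in either direction. Several of them thus had ratios of the size of Hoxc4, Hoxc8 and Hoxc9, while others were nearly level.

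Beside HoxA, the homeobox gene Evx1 was below the median (13.0 and 10.9) and Tax1bp1 had its brightest probe set at 764 and 967 (log2 ratio 0.30). Hibadh had ratios of 0.27 and 0.33, Skap2 was below the median in both arrays, Cbx3 read 46.6 and 36.8 (−0.38) and Snx10 581 and 537 (−0.15). Beside HoxD, the homeobox gene Evx2 read 29.2 and 19.4 (bound −0.47), Lnpk 688 and 448 (−0.66), Mtx2 1113 and 1341 (0.23) and Atp5g3 5583 and 5984 (0.06). Beside HoxB, Snx11 had a ratio of 0.16, Atp5g1 of 0.17 and the 5 probe sets of Cbx1 ratios from −0.22 to 0.53, whereas Skap1, Calcoco2 and Ttll6 were below the median. A separate list of 17 genes near the clusters, which holds part of these neighbours and also Copz2 and Nfe2l1, had a median log2 ratio of 0.06 and 0 calls. Each of Lnpk, Mtx2 and Atp5g3 thus had a probe set at the median in both arrays, although no HoxD probe set was.

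Partners of the HOX proteins were at the median in both arrays for 6 of 8 genes. For the lists that follow 1 probe set a gene was used, and over all genes 3.91% were called (355 higher and 356 lower), with a median log2 ratio of 0.02. By the same choice of probe sets, 10576 of all 18193 genes were at the median in both arrays. Of 8 PBX, MEIS and PKNOX genes measured, 1 was called higher and 0 lower, and the median was 0.30. Pbx3, a cofactor that binds DNA with HOX proteins, read 252 in siControl and 605 in siCPEB1, 2.33-fold higher. Its other probe set read 514 and 1578, 2.98-fold higher, so that both probe sets were called. Meis1, which stabilises HOX and PBX on DNA, read 128 and 213 (log2 ratio 0.69) from one probe set, while another at the median in both arrays had a ratio of −0.34. All 4 probe sets of Meis2 had ratios between 0.21 and 0.64. Pbx2 read lower at its 3 probe sets (−0.15, −0.32 and −0.55), Pbx4 had a ratio of 0.22, and the chosen probe set of Pknox1 read 169 and 174.

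Among Polycomb genes, 0 of 29 were called and the median log2 ratio was 0.12. Pcgf5, of a variant PRC1 complex, read 461 and 252 (−0.91), and its other bright probe set 113 and 51.2 (−1.18) was past 2-fold. Over all 77 probe sets of the list, 2 were called higher and 2 lower. Besides that of Pcgf5, they were a probe set of Pcgf6, of another PRC1 complex, at 66.4 and 26.6, and in the other direction one of Cbx7, a reader of H3K27 methylation, 2.10-fold higher, and one of Ezh1, a methyltransferase of PRC2, at 52.6 and 109 (2.01-fold). Jarid2, which helps to recruit PRC2, read 256 and 425 (0.69), with its other probe sets at 0.74 and 0.56. Trithorax genes and H3K27 demethylases had 0 of 17 called higher and 1 lower, with a median of −0.04. The one called was Aff4, the scaffold of the super elongation complex, at 989 and 366 (2.78-fold lower); a dimmer probe set had a bound of −0.67. CTCF and cohesin genes had 0 of 11 called and a median of −0.05, with Stag2 at −0.77 and Stag1 at −0.45. These regulators of the clusters were nearly all at the median in both arrays, 28 of 29 for Polycomb, 17 of 17 for trithorax and 11 of 11 for CTCF and cohesin.

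Genes of retinoic acid supply and response had 0 of 16 called, with 8 at the median in both arrays and a median log2 ratio of 0.29. This median included genes below the array median. The 8 at the median in both arrays had ratios of −0.48, −0.44, −0.24, −0.21, 0.03, 0.09, 0.17 and 0.41. Crabp1, a binding protein for retinoic acid, read 364 and 269 (−0.48), and Rdh10, which makes retinal, 148 and 112 (−0.44). Over all 22 probe sets of the list 1 was called, a probe set of the receptor gene Rarg at 79.5 and 27.9. Of genes that pattern the body axis upstream of the clusters 0 of 8 were called (median −0.14), with Gdf11, a signal of the trunk to tail transition, at 24.4 and 22.4, and Egr2, a regulator of hindbrain segments, at 37.2 and 42.9. Antisense and other non-coding RNAs of the clusters gave 3 measured genes, all below the median in both arrays and 0 called (median −0.15).

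**Figure D4:**
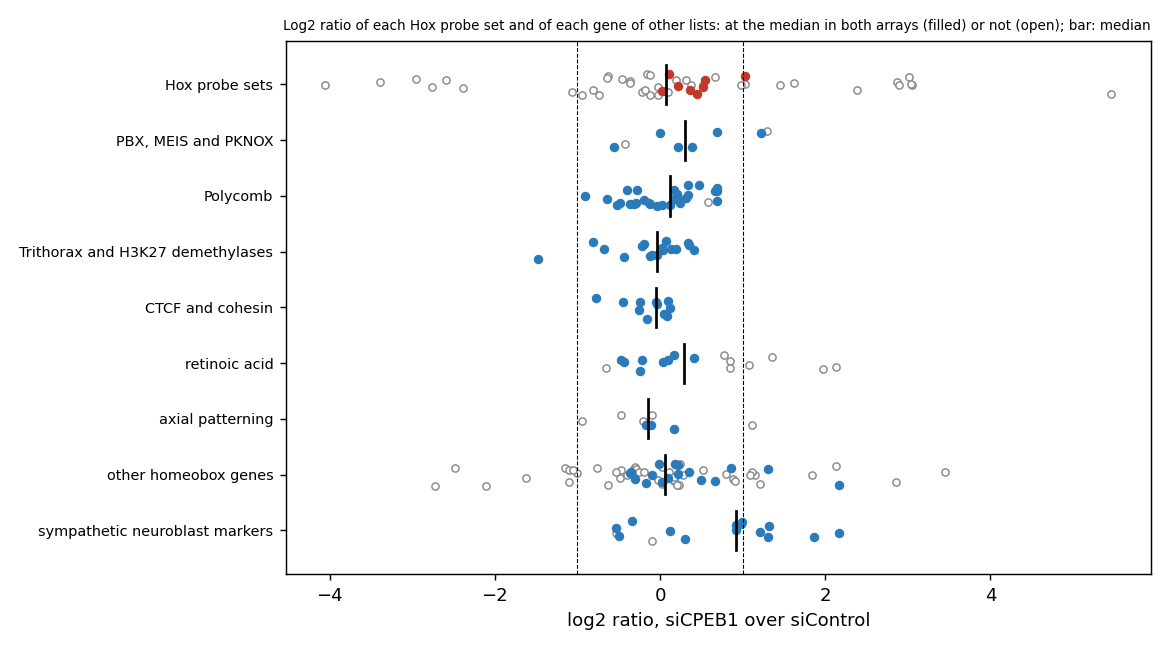
Log2 ratios (siCPEB1 over siControl) of the Hox probe sets (top row) and of every gene of the lists, 1 probe set a gene. Filled points were at or above the median in both arrays, open points were not, bars are medians over all points of a row and dashed lines mark 2-fold. The 8 filled Hox points lie between 0.02 and 1.03, and the row of sympathetic neuroblast markers has its median at 0.92.

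Other homeobox genes included 2 of 60 called higher and 0 lower, with a median of 0.06. They were Isl1 and Phox2a, both of the sympathetic lineage. Isl1 read 224 and 1036, with a log2 ratio of 2.17 and of 1.90 at its other probe set. Phox2a read 565 and 1443 (1.31). Most markers of the labelled cell type were read: 14 of 16 markers of sympathetic neuroblasts were at the median in both arrays, against 10576 of all 18193 genes. Th, the enzyme that begins catecholamine synthesis, was below the median (18.6 and 17.9). Of the 16 markers 5 were called higher and 0 lower, with a median of 0.92. Besides Isl1 and Phox2a, they were Gata3 (46.0 and 172), Mycn (296 and 759, with ratios of 0.66 and −0.97 at its other probe sets) and the decarboxylase gene Ddc (313 and 746). The summed signal of this list was 14277 in siControl and 20193 in siCPEB1. Of the 16, 11 had a ratio above 1, the sign of the 8 Hox probe sets at the median. The others were lower in siCPEB1: Gata2 (584 and 416, −0.53), Insm1 (1085 and 790, −0.50), Stmn2 (2556 and 2080, −0.34), Hand1 (−0.54) and Th (−0.09). The part of the sympathetic neuroblast markers in the Hox readings was not tested.

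Markers of other cell types were mostly dim. At the median in both arrays were 3 of 9 fibroblast markers, 1 of 9 haematopoietic, 1 of 7 glial and 1 of 5 endothelial markers. Their summed signals were 210 and 430, 112 and 131, 68.5 and 119, and 74.6 and 116, each pair siControl first, and none of the markers was listed at 0. Their median log2 ratios were 0.37, 0.19, 0.59 and 0.32. Called among them were Col1a2, a collagen gene, at 42.3 and 309, and Pdgfrb, a receptor of mesenchymal cells, at 97.1 and 26.9, which went opposite ways. A further probe set of Acta2, the smooth muscle actin gene, which was not the one chosen for the list, read 345 and 91.2 (3.89-fold lower). The fibroblast sum turned on such choices: it was 168 and 121 without Col1a2, and 551 and 516 with the brightest probe set of each gene, both lower in siCPEB1. The part of these markers in the Hox readings was not tested either.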

How the data were processed

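RNA of 2 cultures was measured on 1 array each (siControl and siCPEB1). The deposited intensity of each probe set is linear and, by the submitters' processing notes, was computed by the authors with MAS5 in Affymetrix Expression Console. This method corrects for background and multiplies all signals of an array by 1 factor. Its target, version and detection calls were not given in the sources used here.

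Each array was divided by its median over all 45101 probe sets. The 64 control probe sets among them were then left out, and counts were taken over the other 45037. The medians differed by 0.04 on the log2 scale. Log2 ratios (siCPEB1 over siControl) were taken with no filter, and the bound was the same ratio with signals below the median of an array set at that median. A bound past 2-fold was a call. With 1 array a group there was no test, and the number of arrays limits the precision. Differences are set beside the pooled SD between probe sets of a gene and the central 95% of ratios in each of 10 classes of signal.

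Gene names came from the platform annotation, updated to RefSeq of GRCm38.p6: 34945 probe sets had 1 symbol, 932 several and 9160 none. For lists, 1 probe set a gene was used, by preference not _x_at or _s_at and otherwise the highest mean signal. Lists were HOX cofactors, Polycomb, trithorax, CTCF and cohesin, retinoic acid, axial patterning, other homeobox genes, non-coding RNAs of the clusters, flanking genes, and markers of sympathetic neuroblasts, fibroblasts, blood, glia and endothelium. Members and lists were chosen with earlier results of these data known. Full values are given for members at the median in at least 1 array or called. From the lists up to 4 called genes with the largest bound were named, or the 2 with the largest bound where none was called, with the 3 nearest coding genes on each side of a cluster. Beyond this rule, dim Hox members and further genes of the cofactor, retinoic acid and marker lists were named after their values were seen. Python 3.11.15, pandas 2.3.3, numpy 2.4.6 and statsmodels 0.14.6 (loess) were used. The calculation was tested on simulated data. Alternatives were other scalings, floors, filters, an offset of 16, and other choices of probe sets.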

Additional observations from a re-analysis of the deposited data

How the results depend on the processing

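Of 300 values recomputed under another setting, 272 moved by less than the SD between probe sets of a gene (counts by at most 1.5 times) and 28 moved more. Many of the values that held were list counts of 0. A change of sign was looked for only in the 1 called Hox probe set, 1427361_at, and was not found. Hox probe sets called higher numbered 1 with median scaling, no scaling, 75th percentile scaling, quantile normalization or loess. They numbered 3 with the 25th percentile of each array as the floor, 0 with the 75th, 11 with no floor and 0 with 16 added to both signals. Those called lower numbered 1 with the 25th percentile floor, 7 with no floor and 1 with 16 added (Hoxc6 1427454_at). At or above the 25th percentile were 25 probe sets in siControl, 24 in siCPEB1 and 17 in both, and at or above the 75th 1, 2 and 1. The median log2 ratio of 0.07 became 0.41 with members at the median in both arrays, and likewise where 1 array had to reach only its 25th percentile, each of which left the same 8 members. It was below 0 under quantile normalization (−0.02) and loess (−0.0048). Genes called over the lists other than cell type markers numbered 4 (Pbx3, Aff4, Isl1 and Phox2a), and 8 with the 25th percentile floor and 29 with no floor, other homeobox genes included. Calls over all probe sets of a list, and list sums with the brightest probe set a gene or without Col1a2, were chosen after seeing the data. No paired analysis was possible because each group had 1 array. No culture was repeated, so differences near 2-fold cannot be separated from the spread between cultures.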

Other observations

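Antisense transcripts of the clusters were below the array median in both arrays: Hoxa11os read 6.27 and 1.31 in siControl and 1.39 and 0.478 in siCPEB1, Hoxb5os 0.860 and 5.89, and the probe sets of Hoxd3os1 13.2 and 1.17 in siControl and 12.3 and 0.730 in siCPEB1. A further 3 probe sets that the annotation gives to a pair of Hox genes read 1.05, 3.34 and 0.882 in siControl and 7.28, 13.9 and 1.06 in siCPEB1, all below the median.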
